A study of Homo sapiens with 32 samples.

Results

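Nascent RNA of HUH7 cells held in mitosis was set against nascent RNA of the same line growing asynchronously. HUH7 is an established human hepatoma line that makes many liver proteins. RNA was labelled in living cells with 5-ethynyl uridine (EU), a uridine analogue that polymerases build into new transcripts, and the labelled RNA was captured and sequenced. A gene belonged to the comparison if it had at least 10 FPKM (fragments mapped to a gene, scaled by its length and by sequencing depth) in either the 0 minute or the asynchronous column of the authors' table, which was met by 18215 of 24238 genes (75.2%), 14480 of them protein-coding. A gene's difference is log2(FPKM + 1) at 0 minutes minus the same in the asynchronous culture, and folds are ratios of FPKM + 1. Adding 1 makes the differences of weak genes too small. "Higher" and "lower" counts below mean at least 2-fold, a difference of 1 or more in size.

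The mitotic cells had grown in 2 mM thymidine for 24 hours and in plain medium for 2 hours, then in nocodazole at 0.06 ug/mL for 16 hours, and were collected by shake-off, washed, replated and labelled at 0 minutes of release. The asynchronous culture had neither drug. Both were given 0.5 mM EU for 40 minutes. The labels list 3 samples for each group, but the authors deposited 1 value a group, so no error, test or p-value stands behind any difference below. The labels do not say whether the pulse began or ended at 0 minutes, so the 0 minute column can hold RNA made early in the release. The thymidine, the nocodazole, the shake-off and the cell cycle stage differ together between the groups and cannot be told apart.

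On entering mitosis, chromosomes condense, the nuclear envelope opens, most transcription factors and RNA polymerase II leave the chromosomes, and transcription is largely shut down. Nocodazole keeps microtubules from forming, so the spindle checkpoint holds cells in this state. An asynchronous culture is a mixture of G1, S and G2 cells with few in mitosis, and so contains cells that transcribe the histone and replication genes of S phase. EU marks RNA made during the pulse, whatever amount of older RNA a cell holds. How much unlabelled older RNA came through the capture was not tested.

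FPKM are scaled within a column, so each value below is a level relative to the other captured RNA of that column and not an amount of transcription per cell. Summed over all transcripts, the columns held 6.24e+06 and 8.80e+06 FPKM, and the median gene stood at 35.3 FPKM at 0 minutes and 42.1 in the asynchronous column. Read totals are not given. Low values of the shortest genes repeated in steps, and if a step is 1 read, a gene of 10 kb at 10 FPKM rests on 24.6 reads at 0 minutes and 45.97 in the asynchronous column, against 2.46 and 4.60 for a gene of 1 kb. Values of histone genes and small RNAs near 10 FPKM therefore rest on a few reads at most. Olfactory receptor genes, which a hepatoma line should not use, had a median of 1.34 FPKM at 0 minutes and 0.55 in the asynchronous column over 209 genes, and their part in the low values below was not tested. Of 10 markers of hepatocytes, all were above 10 FPKM in the asynchronous column, with albumin (ALB) at 2295 FPKM and HNF4A at 947.

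Of the members, 2307 (12.7%) were higher at 0 minutes and 4249 (23.3%) lower, and 11659 were under 2-fold. Genes next to the 10 FPKM limit had highest values of 10.0 FPKM just inside (TMEM202, at 10.0 against 9.51) and 9.99 just outside (CPLX4, at 9.99 against 3.50). At least 8-fold were 219 higher and 308 lower. The median difference over the members was -0.38, and -0.08 over all genes in the table. Many higher genes were weak genes: 1314 of the 2307 reached 10 FPKM only at 0 minutes, and with 10 FPKM asked of both columns 993 of 15451 genes were higher and 3821 lower. The balance also depends on the scaling. Higher genes made up 35.2% of those past 2-fold as deposited, 40.9% once the median of all genes was subtracted and 50.2% after quantile normalization. They made up 53.2% when column medians were made equal and 68.3% when column sums were. The last of these scalings moved the median of all genes from -0.08 to 0.29 and that of the members to 0.09, and quantile normalization moved the members to 0.04. Below, a list's median is given as deposited with its range over these 4 other scalings.

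**Figure D1:**
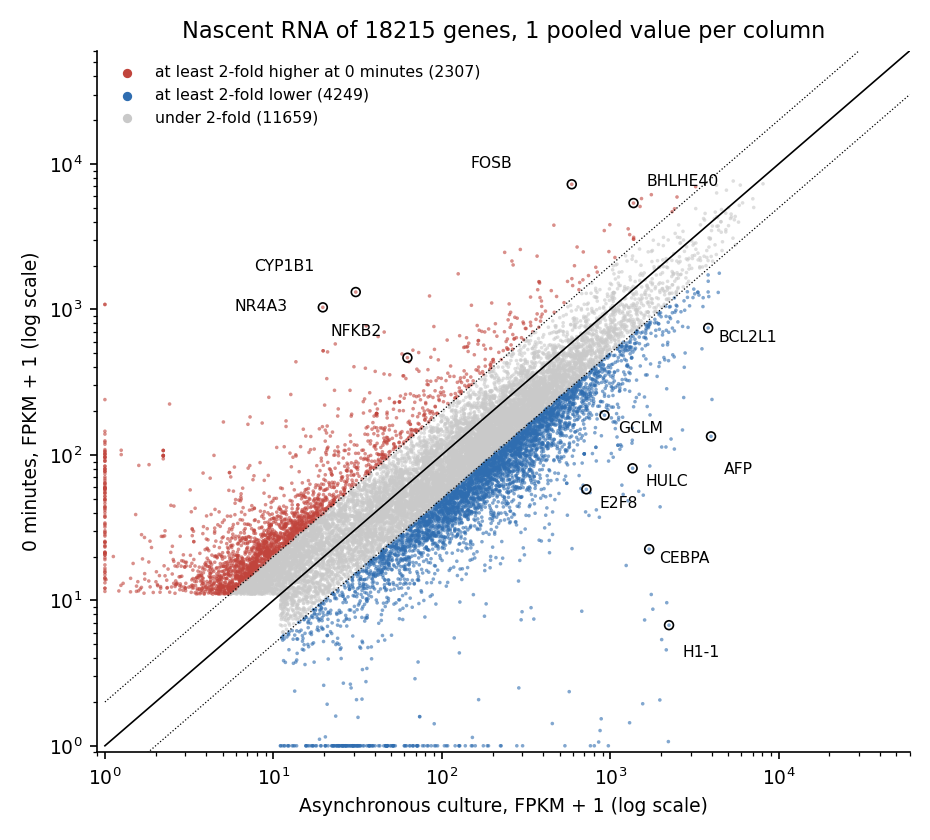
Each point is 1 of 18215 genes, with the asynchronous culture on the horizontal and 0 minutes on the vertical axis, both FPKM + 1 on log scales. Dotted lines mark 2-fold; 2307 genes lie above them and 4249 below, and named genes are ringed.

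The direction followed the level. Among genes of 1 to 3 FPKM in the asynchronous column the median difference was 0.72, and among genes of 3 to 10 FPKM it was 0.61. It was -0.38 at 30 to 100 FPKM, -0.70 at 100 to 300 FPKM and -0.78 at 300 to 1000 FPKM. The asynchronous level sets the bin and also enters the difference, so a slope of this sign can arise without any change in the genes.

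**Figure D2:**
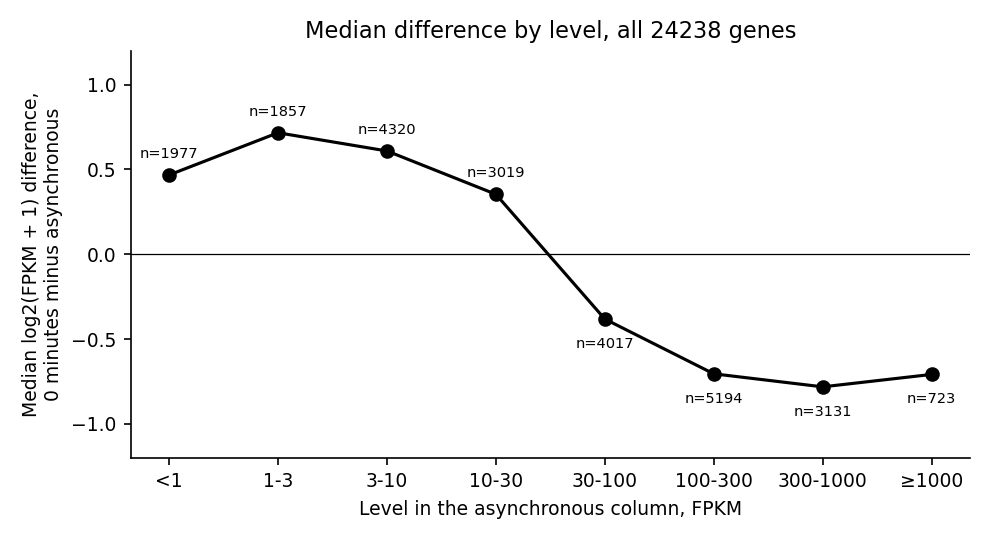
The median difference, 0 minutes minus asynchronous on the log2(FPKM + 1) scale, is plotted against the asynchronous level in FPKM for 8 level classes of all genes in the table. It lies above 0 in the 4 classes under 30 FPKM and below 0 in the 4 above.

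Signal-induced transcription factors stood higher as a group, and their paralogs differed. AP-1, a dimer of FOS, JUN, ATF and MAF family proteins, binds promoters and enhancers of growth and stress genes. Of 13 such genes 9 were higher and 0 lower, with a median of 1.25 (1.33 to 1.73 under the other scalings). FOSB was at 7246 FPKM against 590 and ATF3, a stress-induced repressor, at 2150 against 260. The small MAF gene MAFK was at 1345 FPKM against 446 and the FOS relative FOSL1 at 1596 against 687. JUN itself was at 4315 FPKM against 5246, a difference of -0.28, and its relative JUNB was at 5925 against 2490. Of the FOS family 4 of 4 genes were higher, and of the JUN family 1 of 3 as deposited and 2 of 3 after quantile normalization. Paralogs also differed among the zinc finger factors of the EGR family. EGR2 was at 150 FPKM against 17.8 and EGR3 at 142 against 21.4, but EGR1, the most abundant, was at 1968 against 2067. With the NR4A nuclear receptors and the EGR corepressors NAB1 and NAB2, 6 of 9 were higher and 1 lower, with a median of 2.68 (2.75 to 3.16). NAB1 was the lower one, at 87.5 FPKM against 206.

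Kruppel-like factors, zinc finger regulators of growth and differentiation, were divided. KLF4 was at 2581 FPKM against 292, whereas KLF2 was at 212 against 1017 and KLF7 at 214 against 708. KLF6, at 4857 FPKM against 4574, had the highest 0 minute level of the family and differed by 0.09. Over 13 genes 1 was higher and 4 lower, with a median of 0.02 (0.10 to 0.51). Of feedback inhibitors of MAP kinase signalling 3 of 20 were higher and 5 lower, shares near the 12.7% and 23.3% of all members. The dual-specificity phosphatase gene DUSP5 was at 1804 FPKM against 836 and its relative DUSP1, the protein-coding gene with the highest level at 0 minutes, at 7630 against 5373. Sprouty genes, which restrain receptor tyrosine kinases, included lower genes: SPRY1 was at 66.3 FPKM against 533 and SPRY4 at 717 against 1862. The list's median was -0.05 as deposited and 0.03 to 0.43 under the other scalings.

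**Figure D3:**
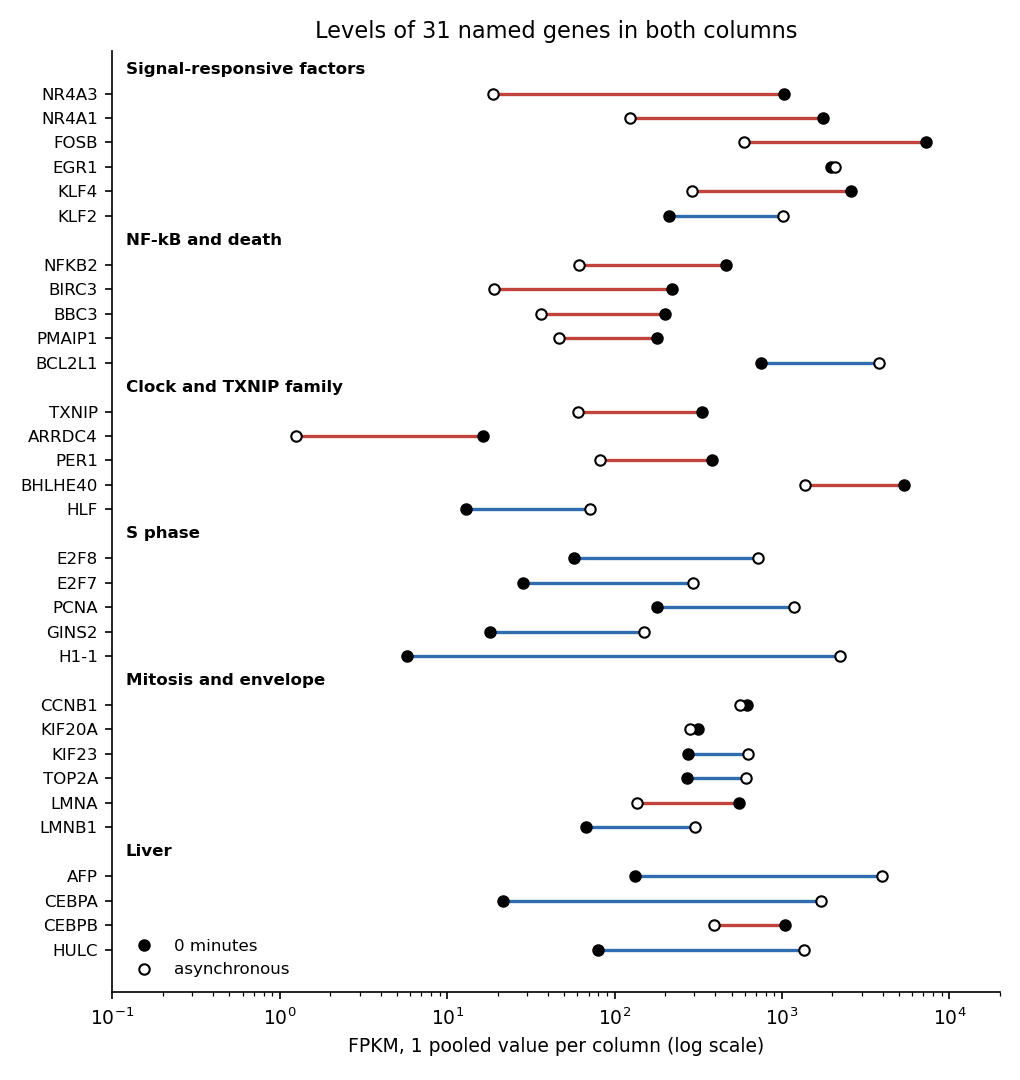
Filled circles give the FPKM at 0 minutes and open circles the asynchronous FPKM of 31 named genes on a log axis, 1 pooled value each, joined in red where at least 2-fold higher, blue where at least 2-fold lower and grey otherwise. EGR1, CCNB1 and KIF20A have nearly the same level in both columns, while H1-1 and CEBPA lie furthest apart to the lower side.

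NF-kB genes were divided, with several of the higher ones far apart from the asynchronous level. NF-kB is a family of inducible factors held in the cytoplasm by inhibitors. NFKB2, the precursor of the noncanonical subunit, was at 465 FPKM against 61.5. The cytokine gene IL11 was at 393 FPKM against 34.2, and BIRC3, which encodes a ubiquitin ligase of that pathway, at 219 against 19.2. The 2 lower genes were chemokines, CXCL1 at 695 FPKM against 2224 and CCL20 at 986 against 2454, while CXCL2, a chemokine chosen after its value was seen, was at 2211 against 1347. NFKBIA, the classic feedback inhibitor, was at 2797 FPKM against 1933, under 2-fold as deposited. Over 19 genes 7 were higher and 2 lower, with a median of 0.53 (0.61 to 1.09). Among 17 interferon-stimulated genes 5 were higher and 1 lower, with a median of 0.31 (0.32 to 0.79), and after quantile normalization 3 and 1. Weak genes were among the higher ones, such as IFIT1 at 13.6 FPKM against 4.54. ISG15, a ubiquitin-like modifier, was at 698 FPKM against 44.5 and the factor IRF1 at 576 against 163.

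Genes of the BCL2 family, which sets the threshold of mitochondrial cell death, were divided. The 4 higher of 15 were BH3-only genes, which promote death: BBC3 was at 200 FPKM against 36.4, PMAIP1 at 178 against 46.4, BIK at 35.9 against 11.4 and BMF at 506 against 217. The other BH3-only members, 4 of 8, were under 2-fold. The 1 lower gene of the list was the survival gene BCL2L1, at 744 FPKM against 3815, a fold of 5.12. MCL1, another survival gene, was at 4665 FPKM against 4202, and the pore-forming BAX was at 329 in both columns. The list's median was 0.31 (0.39 to 0.79).

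Clock repressors were divided between higher genes and genes under 2-fold, and the activators were not higher. In the circadian oscillator, CLOCK and BMAL1 activate PER, CRY and NR1D genes, whose products repress them in turn. PER1 was at 384 FPKM against 81.8, CIART, a repressor of CLOCK and BMAL1, at 39.7 against 7.84, and NR1D1 at 149 against 44.4. The repressors BHLHE40 and BHLHE41 were at 5381 FPKM against 1373 and at 260 against 59.9. CLOCK was at 39.4 FPKM against 118, PER2 at 298 against 574, and BMAL1 close to the threshold at 9.85 against 11.2. The PAR bZIP output factors differed among themselves, with DBP at 32.7 FPKM against 8.44, TEF at 49.1 against 40.2 and HLF at 12.9 against 71.5. PER3, CRY1, CRY2 and NR1D2 were under 2-fold, as was PER2. Of 15 genes 6 were higher and 2 lower, with a median of 0.45 (0.53 to 0.93).

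The alpha-arrestin family was higher in 3 of 5 genes and lower in 0, with a median of 1.85 (1.93 to 2.39). TXNIP, which binds thioredoxin and restrains glucose uptake, was at 334 FPKM against 60.2. ARRDC3 was at 1215 FPKM against 335, and ARRDC4 at 16.3 against 1.25, while ARRDC1 was at 116 against 151. In the MYC network (1 of 11 higher, 2 lower, median -0.22 as deposited and -0.14 to 0.43 under the other scalings), which opposes MXD proteins to MYC over the shared partner MAX, MXD4 was at 653 FPKM against 211. MYC was at 1523 FPKM against 1970 and its relative MYCN at 132 against 1096, a fold of 8.27. Regulators of mRNA decay included ZFP36, which brings the deadenylase to AU-rich transcripts, at 5099 FPKM against 1503, and its paralog ZFP36L2 at 1066 against 2461. The antiproliferative gene BTG2 was at 1995 FPKM against 612.

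Among autophagy and lysosome genes, 3 of 21 were higher and 2 lower as deposited, and 10 and 0 after quantile normalization. The deposited shares are 14.3% and 9.52%, beside 12.7% and 23.3% of all members. The ATG8 family members GABARAPL1 and MAP1LC3B, which coat the growing autophagosome, were at 550 FPKM against 140 and at 1226 against 479. The lysosomal sialidase NEU1 was at 3482 FPKM against 921. ATG5 and ATG7, core enzymes of the conjugation of ATG8 proteins, were at 94.7 FPKM against 211 and at 72.1 against 187.

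Stress pathways differed in direction. In the list of ATF4 and unfolded protein response genes, 4 of 23 were higher and 5 lower, again near the shares of all members. Among the higher ones DDIT4, an inhibitor of mTORC1, was at 449 FPKM against 94.4, DDIT3 at 2482 against 691, and PPP1R15A, which restores translation, at 6975 against 3213. The lower ones included serine synthesis and protein folding enzymes, PSAT1 at 134 FPKM against 589, PHGDH at 43.8 against 125 and PDIA4 at 57.1 against 244. The list's median was -0.47 (-0.39 to 0.02). Genes of the NRF2 antioxidant program were lower in 9 of 20 and higher in 0, with a median of -0.88 (-0.80 to -0.41). GCLM, the regulatory subunit of glutathione synthesis, was at 186 FPKM against 924 and the aldo-keto reductase AKR1C2 at 120 against 425, while HMOX1 was at 73.6 against 84.7 and TXNRD1 at 1275 against 1434. In the list around the aryl hydrocarbon receptor, the receptor gene AHR was at 990 FPKM against 1407. The 3 higher genes of 13 were its targets CYP1B1, TIPARP and CYP1A1, at 1315 against 29.8, 2496 against 981 and 1948 against 820. CYP1B1 and CYP1A1, both detoxifying cytochromes, thus differed by 5.42 and 1.25. The members CYP1A2 and UGT1A6 were under 2-fold and 0 genes were lower, with a list median of 0.006 (0.08 to 0.47). Metallothionein genes, which bind zinc and copper, had 1 of 9 higher and 4 lower, with a median of -0.96 (-0.88 to -0.38), and MT2A was at 60.2 FPKM against 231.

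Hypoxia and glycolysis genes had 4 of 28 higher (14.3%, beside 12.7% of all members) and 1 lower. Their median was -0.13 (-0.05 to 0.34, so its sign depends on the scaling). The mitophagy receptor BNIP3L was at 139 FPKM against 43.8 and its paralog BNIP3 at 97.1 against 221. ANKRD37 was at 155 FPKM against 35.4, whereas HIF1A was at 577 against 948 and the enzyme gene ENO1 at 949 against 1436.

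Developmental signalling genes were mixed, and the YAP-TEAD list stood lower. YAP and TAZ are coactivators that join TEAD factors when cells are spread and attached. CCN2, a matricellular target of YAP, was at 1307 FPKM against 4376, AMOTL2, a feedback inhibitor, at 751 against 2896, and TEAD1 at 154 against 506. The related target CCN1 was at 3744 FPKM against 4373. The receptor tyrosine kinase gene AXL was the 1 higher gene of 21, at 99.7 FPKM against 19.6, and 10 were lower, with a median of -0.91 (-0.83 to -0.39); after quantile normalization 3 were. In the TGF-beta and BMP list, 5 of 14 were lower and 0 higher. The signal carriers SMAD1 and SMAD4 were at 36.2 FPKM against 140 and at 178 against 460, and the inhibitor SMAD6 at 160 against 606. The targets ID1, ID2 and ID3 were at 4568 FPKM against 3655, 6317 against 4280 and 2188 against 2051, all under 2-fold. Of the 5 signal carriers 3 were lower as deposited and 1 after quantile normalization, and SMAD3 was at 608 FPKM against 543. The list's median was -0.29 (-0.21 to 0.19, so its sign depends on the scaling).

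Of 18 Notch and Wnt pathway genes 5 were higher and 4 lower, with a median of -0.34 (-0.26 to 0.14, so its sign depends on the scaling). The 2 pathways differed. Notch genes were higher in 5 of 8 and lower in 1, with a median of 1.10 (1.06 to 1.58). Wnt genes were higher in 0 of 10 and lower in 3, with a median of -0.65 (-0.57 to -0.11). Repressors that Notch induces were among the higher ones. HES4 was at 435 FPKM against 62.8, HEY1 at 109 against 16.5 and HES1 at 4695 against 2329. The ligand gene JAG1 was at 501 FPKM against 2782, a fold of 5.55, and the ligand gene DLL4 at 34.7 against 14.7. ZNRF3, a Wnt target that removes Wnt receptors, was at 44.1 FPKM against 165. Of 19 secreted growth factor genes 5 were higher and 4 lower, with a median of -0.08 as deposited and 0.00 to 0.38 under the other scalings. The EGF receptor ligand AREG was at 1547 FPKM against 378 and the angiogenic factor VEGFA at 930 against 367, whereas the bile acid hormone FGF19 was at 78.2 against 331 and BMP4 at 91.8 against 310.

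Replication-dependent histone genes, whose transcripts lack a poly(A) tail and are made in S phase, were lower in most members. In a bulk sample, fewer cells in S phase and less histone RNA per cell cannot be told apart. Of 65 members 50 were lower and 4 higher, with a median of -4.28 (-4.20 to -3.81). By class, the counts of lower genes were 5 of 6 for H1, 14 of 16 for H2A, 13 of 16 for H2B, 8 of 13 for H3 and 10 of 14 for H4, and the medians were -6.51, -7.57, -4.56, -4.48 and -2.00. At 0 minutes 7 of the 65 were listed at 0 and 24 lay under the worth of 1 step, so the largest folds have almost no reads behind their lower side. Among the 28 genes with at least 10 steps at 0 minutes, by GENCODE spans that reach 14972 bases for H2AC6, 15 were lower and 2 higher, with a median of -1.50. That choice uses the 0 minute level, which also enters the difference. H2BC8 was at 109 FPKM against 2402 and H4C14 at 115 against 1109. H2AC6 and H2BC5 were at 1956 FPKM against 3532 and at 499.5 against 466, both under 2-fold. The 4 higher genes were H3C14 and H3C15, which had identical values of 74.5 FPKM against 4.49, H3C8 at 13.1 against 2.44 and H4C7 at 60.8 against 22.9. Histone copies are alike in sequence, which leaves their separate values uncertain, and H2BC8, H2AC6, H2BC5, H4C14 and these 4 were chosen after their values were seen. Among histone variants, which are made outside S phase as well, H2AJ was at 274 FPKM against 77.0 and H2AX at 533 against 1544. Of 9 genes for factors that process histone transcripts, the stem-loop binding protein gene SLBP was at 460 FPKM against 877 and 1, CASP8AP2, was lower, at 114 against 336.

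Replication and repair genes stood lower without exception among those past 2-fold. Of 51 DNA replication genes 35 were lower and 0 higher, with a median of -1.34 (-1.26 to -0.81), and 19 stayed lower after quantile normalization. The flap endonuclease FEN1 was at 888 FPKM against 2250 and the thymidylate synthase TYMS at 51.5 against 441. GMNN, which blocks licensing of origins, was at 617 FPKM against 839, and RRM2B, the p53-responsive subunit of ribonucleotide reductase, at 89.8 against 85.6. Genes of homologous recombination and the Fanconi pathway, which repairs DNA crosslinks, were lower in 16 of 23 and higher in 0, with a median of -1.61 (-1.53 to -0.97). The nuclease EXO1 was at 78.3 FPKM against 394 and BARD1, the partner of BRCA1, at 70.2 against 353. Upstream of both groups, the E2F repressors E2F7 and E2F8 were at 28.3 FPKM against 294 and 56.9 against 721, further apart than the activator E2F1 at 232 against 879. CCND1, the G1 cyclin, was at 986 FPKM against 2766, and the inhibitors CDKN2B and CDKN2C were at 1378 against 1250 and 79.7 against 80.0. In the G1 list 11 of 27 were lower and CDKN1A alone was higher, at 333 FPKM against 19.8.

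RNA of mitotic genes was captured at 0 minutes at levels that varied with the gene. Late G2 and mitosis are the phases in which their proteins are needed. Of 46 genes for mitotic cyclins, kinases, their regulators and the ubiquitin ligase that ends mitosis, 2 were higher and 13 lower, with a median of -0.70 (-0.62 to -0.07). These shares are 4.35% and 28.3%, beside 12.7% and 23.3% of all members. The higher ones were LIN37, of the complex that represses and activates cell cycle genes, at 213 FPKM against 90.5, and CDC26, of the anaphase-promoting complex, at 412 against 194. Under 2-fold, CKS2, a subunit that binds cyclin-dependent kinases, was at 2043 FPKM against 1095 and the kinase NEK2 at 170 against 99.2. FBXO5, an inhibitor of the anaphase-promoting complex, was at 354 FPKM against 1654, its subunit ANAPC4 at 113 against 572, and the histone kinase HASPIN at 200 against 660. Among 20 kinesin and cytokinesis genes 8 were lower and 0 higher, with a median of -0.80 (-0.72 to -0.23), and none stayed 2-fold lower after quantile normalization. KIF20A was at 313 FPKM against 281, PRC1, which bundles midzone microtubules, at 511 against 514, and KIF15 at 64.5 against 186.

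Genes for structural parts of the chromosome and spindle had larger shares lower. Kinetochore and checkpoint genes were lower in 17 of 34 and higher in 0, with a median of -0.99 (-0.91 to -0.38). The centromeric histone gene CENPA was at 99.3 FPKM against 110, while CENPM was at 33.5 against 273 and the Ndc80 complex subunit SPC25 at 58.6 against 303. Cohesin and condensin genes, with CTCF and MKI67, were lower in 15 of 24 and higher in 0, with a median of -1.14 (-1.06 to -0.52). The cohesin subunit RAD21 was at 346 FPKM against 504 and the condensin subunit NCAPG at 394 against 1325. Centrosome genes were lower in 10 of 16 and higher in 0, with a median of -1.04 (-0.97 to -0.43), and CEP192, a scaffold for centrosome growth, was at 85.0 FPKM against 352. After quantile normalization 6, 2 and 3 genes of these lists were still lower.

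**Figure D4:**
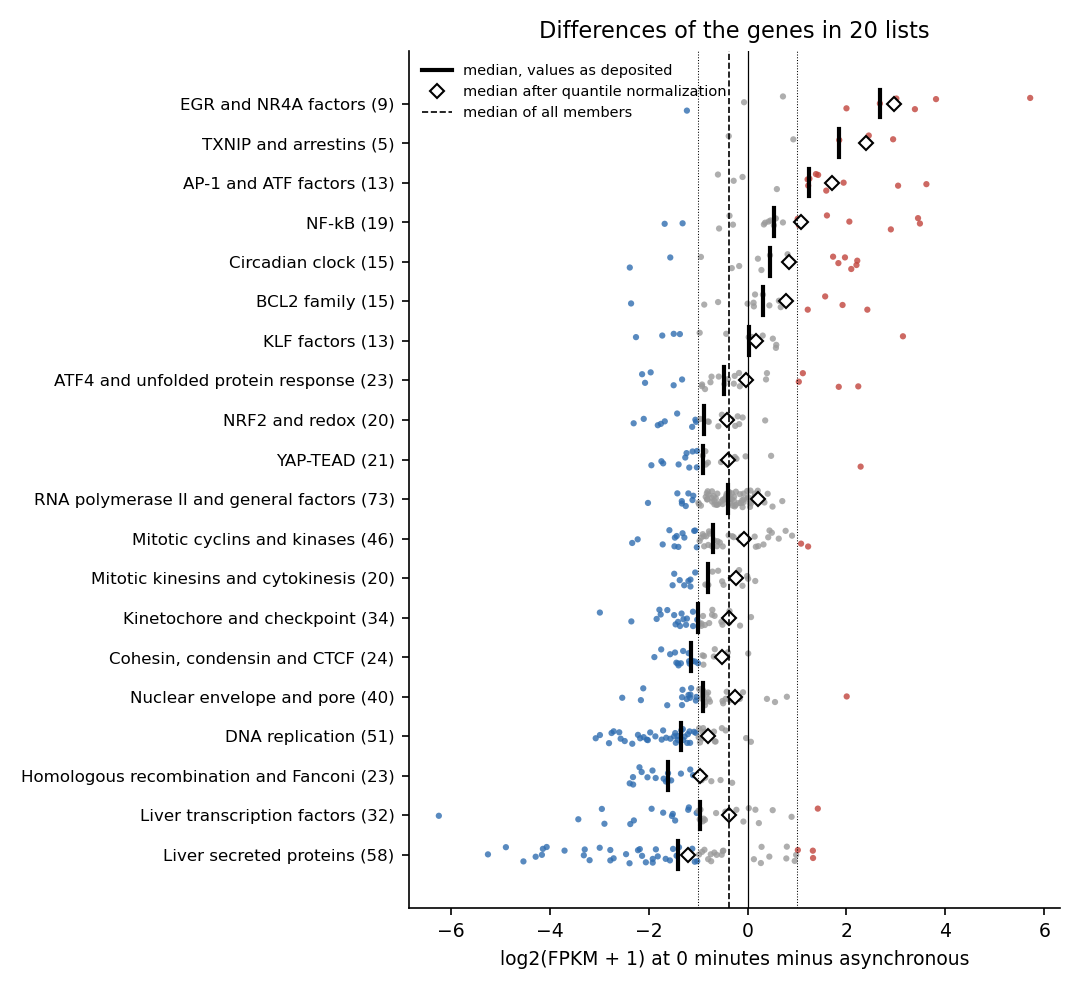
Each point is a gene of 1 of 20 lists, placed by its difference on the log2(FPKM + 1) scale, red where at least 2-fold higher, blue where at least 2-fold lower and grey otherwise, with the number of members in brackets. Bars mark list medians as deposited and diamonds those after quantile normalization; the EGR and NR4A median is 2.68 and the homologous recombination median -1.61.

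Genes of the nuclear envelope, which is rebuilt at the end of mitosis, were lower in 14 of 40 and higher in 1, with a median of -0.90 (-0.82 to -0.25). The A-type and B-type lamins, filament proteins under the inner membrane, lay on opposite sides: LMNA was at 550 FPKM against 136 and LMNB1 at 67.3 against 304. The lamina-associated gene TMPO was at 143 FPKM against 620 and the pore membrane protein gene NUP210 at 32.9 against 195, while the pore subunit gene RANBP2 was at 594 against 796. The list of tubulins, stathmins and tubulin partners was lower in 9 of 22 and higher in 1, with a median of -0.75 (-0.67 to -0.24). Nocodazole prevents the assembly of alpha and beta tubulin. Their genes were lower in 4 of 5 and 2 of 7, and gamma tubulin and partner genes in 3 of 10. TUBB was at 114 FPKM against 1165, TUBA1A at 12.3 against 96.4 and TUBG1 at 34.7 against 235. The neuronal class gene TUBB3 was the higher one, at 359 FPKM against 44.4, TUBB6 was at 1279 against 2245, and TUBA1C at 688 against 701. Tubulin paralogs share sequence, which can blur the split between them. In the actin list 3 of 25 were higher and 7 lower (12% and 28%, beside 12.7% and 23.3% of all members). Its median was -0.49 as deposited and -0.41 to 0.05 under the other scalings. The monomer-binding thymosin gene TMSB4X was at 487 FPKM against 155 and the tropomyosin gene TPM1 at 294 against 1012.

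Genes for the RNA polymerase II machinery and its pause release lay close to the median of all members. Of 73 RNA polymerase II, general factor and Mediator genes 0 were higher and 8 lower, with a median of -0.41 as deposited and -0.33 to 0.22 under the other scalings. The largest subunit POLR2A was at 702 FPKM against 495 and TAF10, a TFIID subunit, at 61.9 against 253. Genes that control release of paused polymerase had 1 of 28 higher and 2 lower (median -0.25, other scalings -0.17 to 0.29). The elongation factor ELL was at 304 FPKM against 150, and HEXIM1, which holds the elongation kinase inactive, at 1233 against 1007. RNA polymerase I and III genes were lower in 10 of 35 (28.6%, beside 23.3% of all members), with a median of -0.73 (-0.65 to -0.12). Chromatin regulators were lower in 22 of 63 and higher in 3, with a median of -0.89 (-0.81 to -0.25). The demethylase KDM6B was at 846 FPKM against 247, while EZH2, the methyltransferase whose mark it removes, was at 120 against 504. UHRF1 and HELLS, which maintain DNA methylation, were at 58.8 FPKM against 249 and at 86.5 against 342.

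Liver genes were lower with a wide spread. Of 10 hepatocyte markers 9 were lower, with a median of -3.68 (-3.60 to -3.16), and HNF4A, the nuclear receptor that maintains hepatocyte identity, was at 694 FPKM against 947. Liver secreted protein genes were lower in 36 of 58 and higher in 3, with a median of -1.41 (-1.33 to -0.95). The acute phase protein gene ORM2 was at 7.90 FPKM against 338, and the fibrinogen gene FGB at 763 against 2688. The 3 higher genes were HAMP, the iron hormone hepcidin, at 26.6 FPKM against 10.1, SAA2 at 11.2 against 3.86 and SERPINC1 at 23.4 against 11.1. Of 32 liver transcription factor genes 14 were lower and 1 higher, with a median of -0.96 (-0.88 to -0.37). CEBPA was at 21.5 FPKM against 1702 while its paralog CEBPB was the higher one, at 1048 against 391. CEBPA's divergent transcript CEBPA-DT was at 16.5 FPKM against 179. The liver noncoding RNAs HULC and LINC00261, chosen after their values were seen, were at 79.8 FPKM against 1356 and at 399 against 2751. The manganese exporter gene SLC30A10, which the liver uses, was at 40.9 FPKM against 826. Markers of blood cells had 6 of 11 higher and 1 lower, with summed levels over those in the table of 259 FPKM at 0 minutes and 442 in the asynchronous column. LYZ made up most of the latter, at 73.7 FPKM against 364, and without it the sums were 186 and 78.1 FPKM. HBB was listed at 0 in both, and HBA1 at 11.1 FPKM against a listed 0. The blood marker median was 1.07 over genes mostly under 30 FPKM. Of 3 stroma and endothelium members, LUM was at 321 FPKM against 80.9, COL1A1 at 25.4 against 3.002 and PECAM1 at 17.1 against 35.9. The part of such cells in the results was not tested.

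Several genes of cell surface, secretion and body pattern that were weak in the asynchronous culture were higher at 0 minutes. A gene under 10 FPKM in the asynchronous column is a member only through its 0 minute level. Of 2131 such members 1314 were higher, so this direction is favoured by the filter. In the list of S100, keratin and annexin genes 8 of 24 were higher and 4 lower, with a median of 0.62 (0.69 to 1.10). S100A14, a calcium-binding protein gene, was at 37.0 FPKM against 3.01, KRT17 at 24.5 against 0.852 and the hyaluronan receptor CD44 at 206 against 23.3, while S100A9 was at 2.98 against 24.3 and ANXA3 at 138 against 715. In the list of neurosecretory and CREB-responsive genes 7 of 19 were higher and 4 lower, with a median of 0.20 (0.28 to 0.68). VGF, a secreted neuropeptide precursor, was at 223 FPKM against 1.42, PTHLH, a parathyroid hormone relative, at 248 against 8.40, and SIK1, a kinase that restrains CREB coactivators, at 1457 against 597. The phosphodiesterase genes PDE4D and PDE4B, which degrade cyclic AMP, were at 50.6 FPKM against 179 and at 4.08 against 22.9. Homeobox genes had 6 of 22 higher and 7 lower (median -0.22, other scalings -0.14 to 0.24), with DLX2 at 578 FPKM against 22.3, DLX1 at 30.8 against 4.73 and HOXB7 at 39.6 against 2.26, but the HOXC neighbours HOXC4, HOXC5 and HOXC6 at 12.7 against 65.9, 20.3 against 72.1 and 40.5 against 141.

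Long genes were more often lower. FPKM here appear to be counted over the whole gene, introns included: in a check made after the data were seen, of 27 genes with very low values 18 lay within 2% of a whole number of steps by gene span and 2 by exon length. Of the protein-coding members of 10 to 30 kb, 15.7% were lower and 14.6% higher. At 100 to 300 kb 33.4% were lower and 3.51% higher, and of the 444 genes of at least 300 kb 54.7% were lower and 1.35% higher. The median difference of these classes went from -0.24 to -0.69 and -1.08. The same order held among genes of 100 to 300 FPKM in the asynchronous column, where medians were -0.55, -0.96 and -1.42. After quantile normalization 41.9% of the longest class were lower, with a median of -0.86. ATP2B2, a calcium pump gene of 384 kb, was at 7.34 FPKM against 299. Named after their values were seen, the glypican gene GPC3 was at 27.4 FPKM against 453.5, the tumour suppressor gene WWOX at 27.5 against 205, and RUNX1, the largest difference to the higher side in this class, at 625 against 244. Genes under 3 kb, which include the histones, were past 2-fold often in both directions, 35.04% lower and 20.8% higher, with a median of -0.53. After quantile normalization 26.0% were lower and 22.3% higher, with a median of -0.09.

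**Figure D5:**
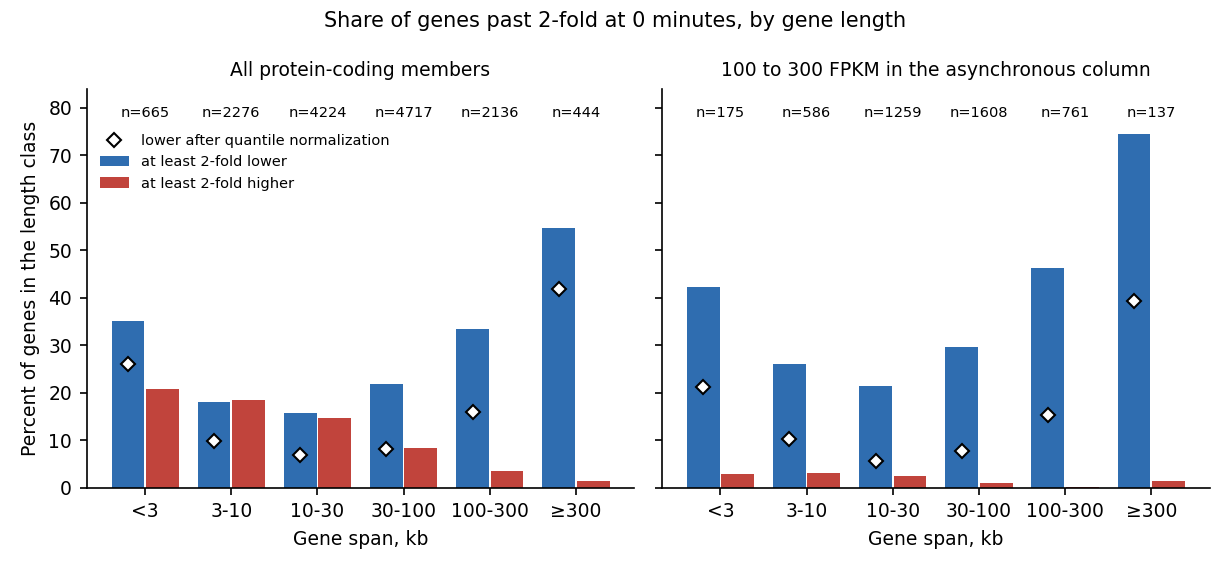
Bars give the percent of protein-coding genes at least 2-fold lower (blue) or higher (red) at 0 minutes in 6 classes of gene span in kb, for all protein-coding members and for those of 100 to 300 FPKM in the asynchronous column, with diamonds for the lower share after quantile normalization. The lower share is least at 10 to 30 kb and reaches 54.7% and 74.5% at 300 kb and above.

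Clustered protocadherin genes, which encode adhesion molecules and share a constant region, were lower nearly throughout. All 23 PCDHG members were lower, with differences from -2.56 to -1.29 and levels of 14.5 to 59.2 FPKM at 0 minutes against 42.1 to 252 in the asynchronous column; 19 were still lower after quantile normalization. Of 19 PCDHB members 17 were lower, and of the 15 listed PCDHA genes 1 reached 10 FPKM. PCDHG transcripts overlap over their shared exons, so these values are not independent. The families that follow are set beside the 23.3% of all members that were lower. Zinc finger (ZNF) genes off chromosome 19 were lower in 85 of 240 (35.4%) and higher in 11, with a median of -0.75 (-0.29 after quantile normalization). Those on chromosome 19, where most lie in clusters, were less often lower than all members. They were lower in 29 of 243 (11.9%) and higher in 10, with a median of -0.30 (0.16 after quantile normalization). Cytosolic ribosomal protein genes were lower in 10 of 83 with a median of -0.56 (-0.48 to 0.02), mitochondrial ones in 29 of 77 with a median of -0.86 (-0.78 to -0.20). All 27 USP17L copies were higher, but their reads cannot be told apart.

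Noncoding RNAs differed by class. Long noncoding RNA genes had 366 of 1888 higher and 350 lower, with a median of 0.07, against -0.41 for protein-coding genes, but after quantile normalization both medians were 0.05. The classes also differed in level, with medians of 24.04 and 113 FPKM in the asynchronous column. Genes named as divergent transcripts start next to a coding gene and run away from it. Of 176 whose coding partner was also a member, 36 were higher and 20 lower, with a median of 0.13, while the partners had 6 higher and 57 lower and a median of -0.59. In 131 pairs the divergent transcript had the more positive difference. Of the 20 lower divergent transcripts 12 had a lower partner, and of the 36 higher ones 4 had a higher partner and 7 a lower one. CD44-DT was at 44.0 FPKM against 1.46, DLX2-DT at 44.4 against 11.9 and SOCS3-DT at 42.1 against 6.71, next to CD44, DLX2 and the cytokine inhibitor gene SOCS3, the last at 752 against 254. PAXIP1-DT was at 65.9 FPKM against 301 beside PAXIP1 at 57.4 against 281. These pairs were chosen after their values were seen. The median divergent transcript was at 30.2 FPKM in the asynchronous column, at the border between the level classes with medians of 0.35 and -0.38. The library kit keeps strand, but the use of strand in counting is not stated, so reads of a divergent or antisense transcript and of an overlapping partner may not be told apart.

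Small RNAs rested on few steps. The vault RNA gene VTRNA1-3, made by RNA polymerase III, was at 1090 FPKM against 250 on 23.9 and 10.2 steps, and the telomerase RNA gene TERC at 397 against 296. The minor spliceosome RNA RNU11 was at 146 FPKM against 636 on 4.80 and 39.2 steps. The class of small nuclear RNAs in RefSeq had 21 of 35 higher and 5 lower. Most of it is snaR copies, near-identical small RNAs, of which 20 of 26 were higher and 1 lower, and of the other 9 genes 1 was higher and 4 lower. Small nucleolar RNAs were lower in 55 of 221, near the 23.3% of all members, and higher in 10, and after quantile normalization 22 were lower and 20 higher. Of 17 noncoding hosts of small nucleolar RNAs 7 were lower (41.2%, beside 23.3% of all members) and 0 higher, with a median of -0.93. The lower ones included DANCR, at 729 FPKM against 1956, and after quantile normalization 0 were lower. The other 7 noncoding genes of that list, grouped as nuclear RNAs, had 1 higher and 0 lower, with a median of 0.02. MALAT1 was the higher one, at 4917 FPKM against 2408. VTRNA1-3, TERC and RNU11 were chosen after their values were seen, as were the long noncoding RNAs MIR23AHG at 2021 FPKM against 264 and EGOT at 403 against 29.1.

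Promoter sequences of 11766 protein-coding members (81.3%) were matched by symbol to RefSeq windows of 250 bases before and 50 after the annotated start (GRCh38.p14). Motifs were searched on both strands, and matches of different motifs may overlap. The AP-1 motif TGANTCA was in 8.68% of windows of higher genes, 11.1% of those at least 4-fold higher, 4.11% of lower genes, 4.76% of all these members and 7.76% of all 27305 RefSeq windows. The TATA motif TATAAA was in 11.7% of higher, 7.42% of lower, 6.94% of all member and 11.95% of all RefSeq windows. Its share among higher genes was thus near that of all RefSeq windows. It was in 18.1% and 15.8% of windows of genes at least 4-fold higher and lower. The GC box GGGCGG was in 55.3% of higher, 64.8% of lower and 66.0% of member windows, and 44.6% of all windows. The full cyclic AMP response element (CRE) TGACGTCA was in 2.98% of higher, 2.62% of lower and 3.03% of member windows, so it did not separate these sets. Windows of higher genes were a little poorer in G and C, with a median of 62.3% against 65.0% for lower genes and 64.3% for all. The heat shock motif GAANNTTC was in 6.28% of higher, 4.29% of lower and 4.88% of member windows, and 6.87% of all windows. A match is a description of letters, not of binding.

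The windows below were picked after the values were seen, to show such matches in genes named above. In IL11 (chr19:55370414-55370713, minus strand) and BBC3 (chr19:47232618-47232917, minus strand) the capitals mark AP-1 letters, which begin 96 and 113 bases before the start. In AREG (chr4:74444886-74445185, plus strand) and VGF (chr7:101165520-101165819, minus strand) they mark a CRE, 65 and 79 bases before the start, and a TATA motif, 29 and 32 bases before it, which in VGF reads on the other strand. In HSPA1A (chr6:31815293-31815592, plus strand), a heat shock chaperone gene at 6146 FPKM against 1753 that shares near-identical sequence with HSPA1B, they mark the heat shock motif and the TATA motif, 106 and 30 bases before the start.
IL11: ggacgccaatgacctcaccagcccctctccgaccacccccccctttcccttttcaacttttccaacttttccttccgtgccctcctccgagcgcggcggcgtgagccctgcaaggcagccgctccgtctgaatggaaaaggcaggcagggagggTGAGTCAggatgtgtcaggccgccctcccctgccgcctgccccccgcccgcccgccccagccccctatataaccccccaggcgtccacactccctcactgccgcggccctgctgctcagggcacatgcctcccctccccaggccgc
BBC3: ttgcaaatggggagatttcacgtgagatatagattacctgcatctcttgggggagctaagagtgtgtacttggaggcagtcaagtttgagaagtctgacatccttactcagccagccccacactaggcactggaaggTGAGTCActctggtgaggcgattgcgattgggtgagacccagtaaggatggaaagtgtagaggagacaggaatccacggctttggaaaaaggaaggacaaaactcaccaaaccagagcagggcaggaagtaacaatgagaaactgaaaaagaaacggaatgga
AREG: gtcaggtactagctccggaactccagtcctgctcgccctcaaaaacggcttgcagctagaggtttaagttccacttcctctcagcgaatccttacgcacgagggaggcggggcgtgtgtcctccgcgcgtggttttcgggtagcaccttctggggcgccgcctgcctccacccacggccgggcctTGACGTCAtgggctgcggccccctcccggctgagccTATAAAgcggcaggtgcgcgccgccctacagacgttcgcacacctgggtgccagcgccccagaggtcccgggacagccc
VGF: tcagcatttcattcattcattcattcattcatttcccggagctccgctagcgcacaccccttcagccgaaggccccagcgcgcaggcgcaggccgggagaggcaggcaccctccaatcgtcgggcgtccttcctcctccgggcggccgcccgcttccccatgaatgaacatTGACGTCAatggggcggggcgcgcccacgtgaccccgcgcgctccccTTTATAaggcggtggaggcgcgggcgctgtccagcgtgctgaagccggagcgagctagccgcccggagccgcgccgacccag
HSPA1A: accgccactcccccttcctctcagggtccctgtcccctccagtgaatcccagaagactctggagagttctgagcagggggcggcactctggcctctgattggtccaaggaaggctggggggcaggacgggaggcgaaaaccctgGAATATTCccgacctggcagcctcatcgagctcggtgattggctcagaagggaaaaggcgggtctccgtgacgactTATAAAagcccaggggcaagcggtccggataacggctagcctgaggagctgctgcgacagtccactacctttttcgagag

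Cell cycle motifs were far more frequent in some lists than among all members. The E2F motif TTTCCCGC was in 2.98% of windows of lower genes, 1.57% of higher genes and 2.42% of all member windows, but in 10 of 43 windows of the DNA replication list (23.3%). The cell cycle homology region TTTGAA was in 10.2% of higher, 12.05% of lower and 10.5% of member windows, and in 15.4% of all windows. It was in 15 of 19 windows of the kinesin and cytokinesis list (78.9%), 14 of 28 of the kinetochore list and 14 of 38 of the mitotic cyclin and kinase list. The CCAAT box, searched as CCAAT, was in 36.8% of member windows and again in 15 of the 19 kinesin and cytokinesis windows. It was not particular to cell cycle lists, with 12 of 13 homeobox windows and 17 of 22 of the ATF4 and unfolded protein response list. The kinesin and cytokinesis list held both KIF20A, under 2-fold, and KIF23, which moves midzone components, at 274 FPKM against 629. In GINS2 (chr16:85688905-85689204, minus strand), a replication helicase subunit at 18.1 FPKM against 151, and PCNA (chr20:5126573-5126872, minus strand), the sliding clamp at 180 FPKM against 1184, the capitals mark the E2F motif, 31 and 59 bases before the start and reading on the other strand. In KIF23 (chr15:69414099-69414398, plus strand) they mark a CCAAT box on the other strand and a TTTGAA, 64 and 55 bases before the start. In the linker histone gene H1-1 (chr6:26017738-26018037, minus strand), at 5.75 FPKM against 2233, they mark a CCAAT box and a TATA motif, 54 and 31 bases before the start, and a TATA motif on the other strand after it.
GINS2: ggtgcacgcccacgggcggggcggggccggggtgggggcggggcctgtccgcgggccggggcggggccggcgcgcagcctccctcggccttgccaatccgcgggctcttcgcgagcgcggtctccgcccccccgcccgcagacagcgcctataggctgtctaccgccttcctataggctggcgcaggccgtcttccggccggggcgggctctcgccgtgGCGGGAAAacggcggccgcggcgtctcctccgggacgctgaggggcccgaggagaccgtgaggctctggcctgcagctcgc
PCNA: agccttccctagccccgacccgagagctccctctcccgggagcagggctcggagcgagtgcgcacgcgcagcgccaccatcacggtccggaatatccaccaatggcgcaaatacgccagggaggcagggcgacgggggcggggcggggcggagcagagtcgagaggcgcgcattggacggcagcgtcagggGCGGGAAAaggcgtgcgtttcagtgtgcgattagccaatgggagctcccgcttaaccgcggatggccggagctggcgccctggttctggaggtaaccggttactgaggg
KIF23: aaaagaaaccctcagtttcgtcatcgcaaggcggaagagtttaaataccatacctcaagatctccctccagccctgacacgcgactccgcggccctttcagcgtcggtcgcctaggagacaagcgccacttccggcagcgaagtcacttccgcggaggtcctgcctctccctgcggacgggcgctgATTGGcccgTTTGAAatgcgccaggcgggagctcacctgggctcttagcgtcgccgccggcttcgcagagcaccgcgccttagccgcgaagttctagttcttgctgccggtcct
H1-1: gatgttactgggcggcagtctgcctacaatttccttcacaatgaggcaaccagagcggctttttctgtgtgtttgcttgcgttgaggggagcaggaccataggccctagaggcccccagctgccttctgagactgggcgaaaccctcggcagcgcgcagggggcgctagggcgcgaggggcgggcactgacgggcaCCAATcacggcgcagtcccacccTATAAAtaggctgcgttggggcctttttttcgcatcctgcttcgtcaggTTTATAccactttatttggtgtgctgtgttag

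The other release columns place these differences in time, with the asynchronous column shared by all of the medians that follow. The replication list stood at -1.34 at 0 minutes, -0.92 at 80 and -0.57 at 300 minutes. The kinesin and cytokinesis list went from -0.80 at 0 minutes to -0.71 at 80 and -1.83 at 300 minutes. The nuclear envelope list went from -0.90 at 0 minutes to -0.34 at 80 and -0.22 at 300 minutes. AP-1 and ATF genes stood at 1.25, 1.22 and -0.70 at the same times, and TXNIP and its relatives at 1.85 at 0 and 3.42 at 80 minutes. Hepatocyte markers stood at -3.68, -3.61 and -2.22. Of the 2307 higher genes 1015 had their highest value of the 7 columns at 0 minutes, against 1761 of all 18215 members. Of the 4249 lower genes 2290 had their lowest there, against 6616 of all members, and being higher or lower than 1 of the columns itself favours this.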

How the data were processed

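Nascent RNA of HUH7 cells was labelled with EU, captured and sequenced from stranded, ribosome-depleted libraries, per the labels' protocols. The authors deposited 1 FPKM column for each group, which the columns' names do not split into samples. The tools named in the submitters' processing notes are bcl2fastq, Bowtie2 2.2.9, TopHat and bedtools with build hg19. The counting, pooling, annotation, use of strand and any background subtraction are not given in the sources, nor is it stated if spike-in samples entered the asynchronous column. Groups without EU or with spike-in were not analysed here.

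Of 48205 transcripts 47123 (97.8%) were matched by accession to RefSeq symbols and averaged over distinct value vectors into 24238 genes. The members, lists and motifs were chosen with earlier results of these data known. Named genes were the 20 with the largest difference in each direction (at least 100 FPKM in the higher and 5 in the lower column), the 10 with the highest level at 0 minutes, those at the 10 FPKM limit, every member of a list of 15 or fewer, and in longer lists up to 4 in each direction and the 2 with the highest level. Other genes are marked in the text. With pooled columns no test could be run, and a gene was called at 2-fold on the log2(FPKM + 1) scale. Spans came from GENCODE, and promoters from RefSeq. The 2-fold call was tried on simulated columns with planted changes. Every gene there had the counting error of a 10 kb gene, and there was no spread between libraries. Scalings, filters, pseudocounts and ways of averaging transcripts were tried as alternatives with pandas 2.3.3 and numpy 2.4.6. A few items are not reported here.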

Additional observations from a re-analysis of the deposited data

How the results depend on the processing

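The count of higher genes was 2307 and that of lower genes 4249. The higher count was 3465 with a limit of 1 FPKM or no filter, 701 with a limit of 50 FPKM and 441 with one of 100 FPKM. With 10 FPKM asked of both columns, an alternative chosen after seeing the data, it was 993. After quantile normalization the lower count was 2294, and with equal column sums the counts were 4151 higher and 1929 lower. Which genes make up these counts was not compared, and the cause of the shifts with scaling was not tested. Of 72 list medians 45 kept their sign, 52 their side of 2-fold and 28 both in every alternative run. The blood marker median changed sign, to -2.29, at limits of 50 and 100 FPKM, where LYZ alone was left. Of 699 named genes 611 kept their sign, 546 their side of 2-fold and 458 both over the scalings, pseudocounts and ways of averaging. No paired analysis was possible because the columns pool the samples of a group. The pooled values give no replicate spread, read totals are unknown, and genes with near-identical copies (histones, HSPA1A and HSPA1B, USP17L, snaR) are uncertain.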
